A study of Danio rerio with 6 samples.

Results

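Semaphorins, plexins and neuropilins were profiled in cells sorted from *drl:EGFP* zebrafish embryos, and 37 genes of the family were found among the 25965 genes with a symbol on the array. Members were taken by their symbols alone, as genes named *sema* with a class number, *plxn* with a letter from a to d, or nrp1 and nrp2. They are 24 semaphorins, which are the ligands, and 13 receptors, of which 9 are plexins and 4 are neuropilins. A gene measured by several transcript clusters, the units of the array that stand for a gene or part of one, was represented by the cluster whose signal, averaged over the 6 arrays, was highest.

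Embryos came from 1 family of homozygous *drl:EGFP* fish, in which the regulatory region of draculin (*drl*) drives EGFP, and 3 separate matings were used. Cells of embryos at the 2 somite stage were sorted by EGFP, and cells stained by propidium iodide, a dye that enters dead cells, were discarded. No other genotype or treatment was used, and both fractions come from pooled embryos that carry the transgene. The EGFP-negative fraction is thus the rest of the embryo and not a single tissue. RNA of each fraction was hybridised to one-colour Affymetrix arrays, 3 EGFP-positive and 3 EGFP-negative. Values are log2 signals after RMA, and array medians lay between 5.02 and 5.10.

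Semaphorins carry a Sema domain and signal to cells that bear plexins, transmembrane receptors whose inner part acts on small GTPases and the cytoskeleton. Class 3 semaphorins are secreted and most of them need a neuropilin as co-receptor beside a plexin, whereas those of classes 4 to 7 are held at the membrane and can bind plexins directly. Neuropilins also bind Vegf, and the family is known for steering axons, neural crest cells and growing vessels.

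Every receptor that passed the test was higher in EGFP-positive cells, whereas most semaphorins that passed were lower. All 4 neuropilins and the plexins *plxnb1a* and *plxnb2a* were higher in EGFP-positive cells, by 2.09-fold or more. No receptor passed the test in the other direction. Of the 24 semaphorins, 4 were lower (*sema3fa*, *sema3gb* and *sema4e*, by 1.84-fold to 2.07-fold, and *sema4d* at signals below the array medians), and *sema3e* was 1.34-fold higher. The semaphorin calls were the less stable, since 2 rather than 4 were lower without any of 4 of the arrays, 1 was lower by the SAM statistic, and *sema3e* lost its call under 11 of 18 other settings. The test was limma over all clusters and the Benjamini-Hochberg adjusted p had to be under 0.09, a limit taken from the study's methods. Over all named genes it called 4.12% higher and 3.49% lower, or 7.61% in either direction, beside 11 of the 37 members. At least 2-fold higher among those called were all 6 of the receptors that passed, and 1.59% of all named genes. Against this background 46.2% of the receptors and 4.17% of the semaphorins were higher, while 0 of the 13 receptors and 16.7% of the semaphorins were lower. The median log2 difference was 2.00 for the neuropilins, 0.03 for the 9 plexins, 0.04 for the semaphorins and -0.0048 for all named genes. Over neuropilins and plexins together it was 0.41.

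**Figure D1:**
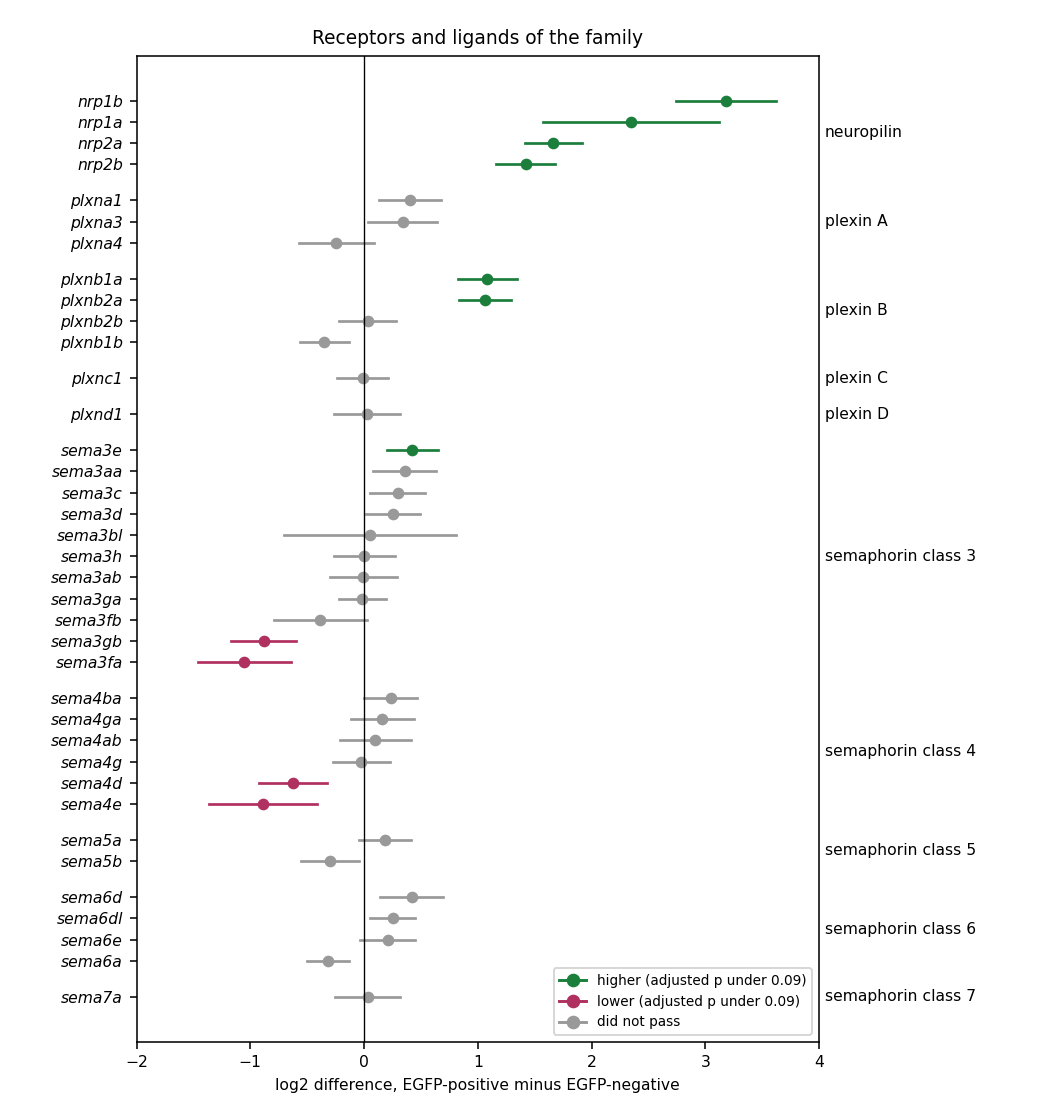
Log2 difference between EGFP-positive and EGFP-negative cells for each of the 37 members, ordered by class, with limma's 95% interval as a bar (3 arrays in each fraction). The 4 neuropilins and 2 of the 4 B plexins lie right of 1, while no semaphorin does and the 4 that were lower belong to classes 3 and 4.

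Tissue markers differed between the sorted fractions, and those of endoderm as well as of lateral plate were mostly higher in EGFP-positive cells. The *drl* gene itself had signals of 9.73 to 10.1 on EGFP-positive against 5.84 to 6.75 on EGFP-negative arrays. Of the 10 lateral plate markers measured, such as *hand2*, *tbx20* and *osr1*, all 10 were higher in EGFP-positive cells, and their mean log2 signal was 9.49 to 10.2 on EGFP-positive against 5.89 to 6.44 on EGFP-negative arrays. They include *drl*, whose regulatory region drives the EGFP of the sort. Beside the counts of markers, 4.12% of all named genes were higher and 3.49% lower. Of 11 vessel precursor markers, 5 were higher and *sox18* was lower, with mean signals of 6.64 to 7.37 against 5.38 to 5.68. Of these 5, *etv2*, *tal1*, *lmo2* and *fli1a* are also among the lateral plate markers, and the other is *tie1*. The vessel markers *fli1b*, *kdrl*, *cdh5*, *sox7* and *egfl7* did not pass. Neural plate markers (8 of 11 lower, mean signals 7.44 to 7.91 against 9.16 to 9.41) and epidermis markers (6 of 8 lower, 8.25 to 8.66 against 10.2 to 10.4) moved the other way. Of 7 neural crest markers 4 were lower and *snai1b* was higher, with mean signals of 7.82 to 8.01 against 8.89 to 9.18. Of 5 endoderm markers 4 were higher (9.68 to 9.99 against 7.64 to 8.19). Of 5 notochord markers 3 were lower (7.67 to 8.01 against 8.68 to 8.77), and of 8 paraxial mesoderm markers 2 were higher and 1 was lower (9.99 to 10.17 against 9.71 to 10.001). The part of these tissues in the results for the family was not tested, and in sorted pools more cells of a type and more RNA in each cell cannot be told apart.

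All 4 neuropilins of the zebrafish were measured, and for each of them the lowest EGFP-positive signal exceeded the highest EGFP-negative one. Among all named genes such a separation upwards was found for 12.9%. Taken alone, each neuropilin reached p = 0.1 by exact permutation (two-sided), and 3 arrays against 3 cannot give less. The gene *nrp1b*, one of the pair of zebrafish Nrp1 genes whose products act as co-receptors for Vegfa and class 3 semaphorins, lies on the forward strand of chromosome 2 of Zv9 from 43570359 to 43633840. Its log2 signals were 8.46, 7.96 and 7.85 on EGFP-positive replicates 1, 2 and 3 and 5.14, 4.70 and 4.88 on EGFP-negative replicates 1, 2 and 3. The EGFP-negative values are near the array medians, where low expression is not told apart from probe background, and the EGFP-positive values are well above them. The mean of 8.09 ± 0.32 (SD, n = 3 arrays) against 4.91 ± 0.22 (SD, n = 3) gives a log2 difference of 3.18 (standard error 0.19, adjusted p = 0.000364 from limma). The ratio of the means was 9.09-fold. With the highest array median in place of the EGFP-negative mean, *nrp1b* was 7.94-fold higher. Neither value is a lower bound, since that median is not a measured background and EGFP-negative replicate 1 lay above it.

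Its duplicate *nrp1a* had signals of 9.70, 8.95 and 8.87 on the EGFP-positive arrays and 6.95, 6.21 and 7.33 on the EGFP-negative arrays. Both fractions were thus above the array medians, and the EGFP-negative arrays spread more (SD 0.57) than those of any other neuropilin. The ratio was 5.08-fold (log2 difference 2.35, standard error 0.33, adjusted p = 0.0113 from limma). These values come from a cluster of 10 probes on unplaced sequence. A second cluster, of 26 probes, spans 1172123 to 1331332 of chromosome 24 (Zv9, reverse strand) and differed by 2.05 on the log2 scale (standard error 0.17, adjusted p = 0.00128 from limma). Another, of 24 probes, is listed on the opposite strand at the end of that span, with a lower difference of 0.77 (adjusted p = 0.0514 from limma), and from its strand it may read another transcript.

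The genes *nrp2a* and *nrp2b* encode zebrafish Nrp2 proteins, which bind Sema3f in particular and, with Vegfc, are known from lymphatic vessels in the mouse. The *nrp2a* signals were 8.16, 7.97 and 7.83 on EGFP-positive against 6.33, 6.26 and 6.38 on EGFP-negative arrays, by a cluster of 25 probes at 4495204 to 4621665 of chromosome 1 (Zv9, reverse strand). The arrays of each fraction lay close together, and *nrp2a* was 3.17-fold higher (log2 difference 1.66, standard error 0.11, adjusted p = 0.000499 from limma). A shorter cluster of 12 probes on unplaced sequence gave 0.79 and missed the threshold (adjusted p = 0.0931 from limma).

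The signals of *nrp2b* were 11.2, 11.0 and 10.9 on EGFP-positive and 9.70, 9.57 and 9.65 on EGFP-negative arrays, far above the array medians in both fractions. By a cluster of 25 probes at 14643756 to 14781066 of chromosome 9 (Zv9, reverse strand), the gene was 2.68-fold higher (log2 difference 1.42, standard error 0.11, adjusted p = 0.000991 from limma). The call rests on that cluster alone. Another 7 clusters named *nrp2b* lie on unplaced sequence, hold 5 to 10 probes and list another transcript, and their differences of 0.05 to 0.27 did not pass (adjusted p = 0.541 to 0.926 from limma). Several of the 7 share their values with each other, so that the 8 clusters of the gene hold 5 distinct sets of values. Some of the 7 had means of 3.02 on EGFP-positive and 2.81 on EGFP-negative arrays, below the array medians, where a difference could hardly show. The rest had means of 8.40 to 8.66 in either fraction. With the mean of all 8 clusters, those at background included, the log2 difference was 0.34 (adjusted p = 0.384 from limma).

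**Figure D2:**
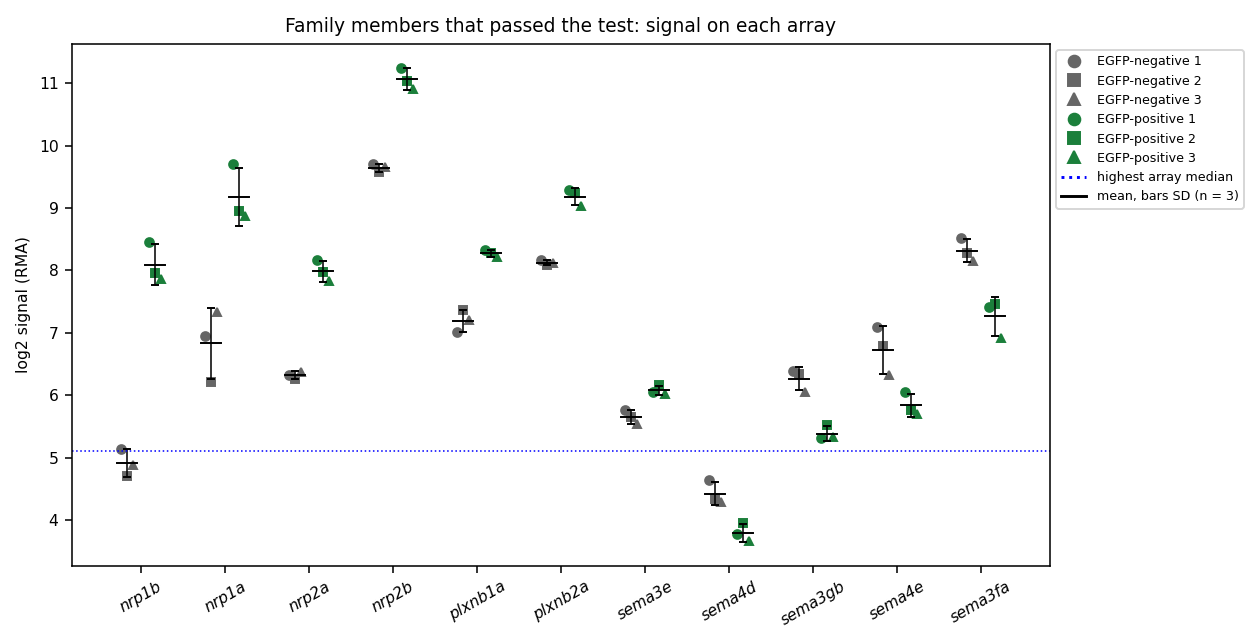
Log2 signal of the 11 members that passed the test on each of the 6 arrays, with symbols for the replicate number, grey for EGFP-negative and green for EGFP-positive cells, and the mean with its SD in black. The fractions do not overlap for any of the 11, which adds no support, since the test that chose them used these same arrays. Of all named genes 12.9% separate upwards and 12.6% downwards. EGFP-negative cells are near the highest array median for *nrp1b*, and *sema4d* is below it in both fractions.

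All 4 neuropilins were highest on EGFP-positive replicate 1. The same array had the highest EGFP-positive signals of *etv2* (10.2 against 9.26 and 8.87), *tal1* (9.84 against 8.53 and 8.03) and *lmo2* (10.6 against 9.55 and 8.86), regulators of vessel and blood precursors. The other vessel precursor markers measured were also highest on it, except *cdh5* and *fli1b*, which were lowest on it, as was *drl*. Of these, *kdrl*, *sox18* and *cdh5* had EGFP-positive means of 5.24, 5.12 and 5.17, near the array medians, and *fli1b* had 4.33, below them. The pattern was not particular to vessel markers. The lateral plate markers *tbx20* (9.61 against 9.19 and 8.68), *gata5* and *hand2* were also highest on that array, whereas *osr1* and *prrx1a* were not. Whether the neuropilin signals followed the share of vessel and blood precursors was not tested. Of the 37 members 14 were highest on EGFP-positive replicate 1 among EGFP-positive arrays, or 37.8%, against 24.9% of all named genes. Without that array the log2 differences were 3.00 for *nrp1b*, 2.08 for *nrp1a*, 1.58 for *nrp2a* and 1.33 for *nrp2b*, and all 4 passed (adjusted p = 0.00121 to 0.0336 from limma).

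Of 9 plexins, 2 were higher, against 4.12% of all named genes, and 7 did not pass. Both that rose are B plexins, which bind class 4 semaphorins without a neuropilin. The gene *plxnb1a*, a zebrafish counterpart of the mammalian Sema4D receptor, had signals of 8.33, 8.28 and 8.22 on EGFP-positive and 7.01, 7.37 and 7.20 on EGFP-negative arrays. The fractions did not overlap, and *plxnb1a* was 2.12-fold higher (log2 difference 1.08, standard error 0.11, adjusted p = 0.00298 from limma). It is covered by 4 clusters next to each other between 10045125 and 10244211 of chromosome 23 (Zv9, reverse strand), and all 4 were higher, with log2 differences of 0.68 to 1.08.

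The *plxnb2a* signals were 9.29, 9.23 and 9.03 on EGFP-positive against 8.17, 8.09 and 8.11 on EGFP-negative arrays, by a cluster at 13514625 to 13689873 of chromosome 4 (Zv9, reverse strand). No array of one fraction came near those of the other, and *plxnb2a* was 2.09-fold higher (log2 difference 1.06, standard error 0.10, adjusted p = 0.00184 from limma). Its cluster on unplaced sequence gave 1.24 (adjusted p = 0.00388 from limma). A cluster of 30 probes that is listed as PLXNB2A in capitals, which the rule on symbols does not take in, was 1.88-fold higher (adjusted p = 0.00839 from limma), while those listed as PLXNA1 and PLXNB3 had differences of 0.33, 0.07 and 0.12 and did not pass. These were looked at after the values of the members were known.

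The duplicates of both B plexins did not pass. For *plxnb1b* the signals were 9.10, 9.22 and 9.02 on EGFP-positive and 9.47, 9.53 and 9.39 on EGFP-negative arrays. The EGFP-positive arrays were all lower, yet the log2 difference of -0.35 missed the threshold (adjusted p = 0.117 from limma). For *plxnb2b* the log2 difference was 0.03, with a 95% interval from -0.22 to 0.28.

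Among the A plexins, which pair with neuropilins to receive class 3 semaphorins, none passed, although *plxna1* did so with adjustment over named clusters only (adjusted p = 0.0582 from limma) and without EGFP-positive replicate 3 (adjusted p = 0.0825 from limma). The *plxna1* signals were 10.42, 10.21 and 10.01 on EGFP-positive and 9.78, 9.83 and 9.81 on EGFP-negative arrays, and those of *plxna3* were 9.49, 9.18 and 9.04 against 8.95, 8.90 and 8.83. Both were thus expressed above the array medians in either fraction, with the EGFP-positive arrays on top by little (log2 differences of 0.41 and 0.34, adjusted p = 0.145 and 0.279 from limma). The *plxna1* values come from a cluster of 103 bases for which no transcript is listed. A second *plxna1* cluster, of 21 probes on unplaced sequence, gave 0.20 (adjusted p = 0.444 from limma). For *plxna4* the log2 difference was -0.24 (95% interval -0.57 to 0.08).

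The plexin *plxnd1* is the vessel receptor that restrains intersomitic sprouts in zebrafish. Its signals of 7.40, 7.34 and 7.47 on EGFP-positive and 7.22, 7.29 and 7.62 on EGFP-negative arrays overlapped, and the log2 difference of 0.03 had a 95% interval from -0.26 to 0.32. These values come from a cluster of 425 bases, from 56156351 to 56156775 on chromosome 8 of Zv9, and a second cluster on unplaced sequence gave 0.24 (adjusted p = 0.593 from limma). The C plexin *plxnc1* was below the array medians in both fractions, at 3.87 and 3.88 on average, so that its expression could not be told apart from background.

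Duplicated genes of the family were set against each other within each array, as the log2 signal of the a gene minus that of the b gene. Of 8 such pairs, 7 are duplicates of 1 ancestral gene kept in zebrafish, whereas *sema5a* and *sema5b* are separate genes in other vertebrates too. The difference between fractions was 1.43 (standard error 0.10) for *plxnb1a* over *plxnb1b* and 1.03 (standard error 0.11) for *plxnb2a* over *plxnb2b*. For *nrp1a* over *nrp1b* it was -0.84 (standard error 0.29), that is, a larger difference for *nrp1b*, and for *nrp2a* over *nrp2b* it was 0.24 (standard error 0.03). Among the ligands it was 0.87 (standard error 0.14) for *sema3ga* over *sema3gb*, -0.67 (standard error 0.17) for *sema3fa* over *sema3fb*, 0.49 (standard error 0.10) for *sema5a* over *sema5b* and 0.36 (standard error 0.21) for *sema3aa* over *sema3ab*. The fractions did not overlap in any pair (exact two-sided permutation test, p = 0.1 and Benjamini-Hochberg adjusted p = 0.1 for each), which is the smallest value that 3 arrays against 3 allow, so no pair could pass the threshold of 0.09. How often other pairs of genes separate in this way was not computed. Of single named genes 12.9% separated upwards and 12.6% downwards. When all clusters of each gene were averaged the values were 0.89 for the nrp2 pair, -1.46 for the nrp1 pair, -0.22 for the sema3f pair and 0.18 for the sema3a pair, so that their size depends on the cluster used. For the sema3a pair the value used for *sema3ab* comes from a short cluster opposite to its long one, so that this comparison may not be one between the transcripts of both genes. In the sema3g pair, *sema3ga* had means of 4.90 on EGFP-positive and 4.92 on EGFP-negative arrays. These are below the array medians, where a fall could hardly show.

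**Figure D3:**
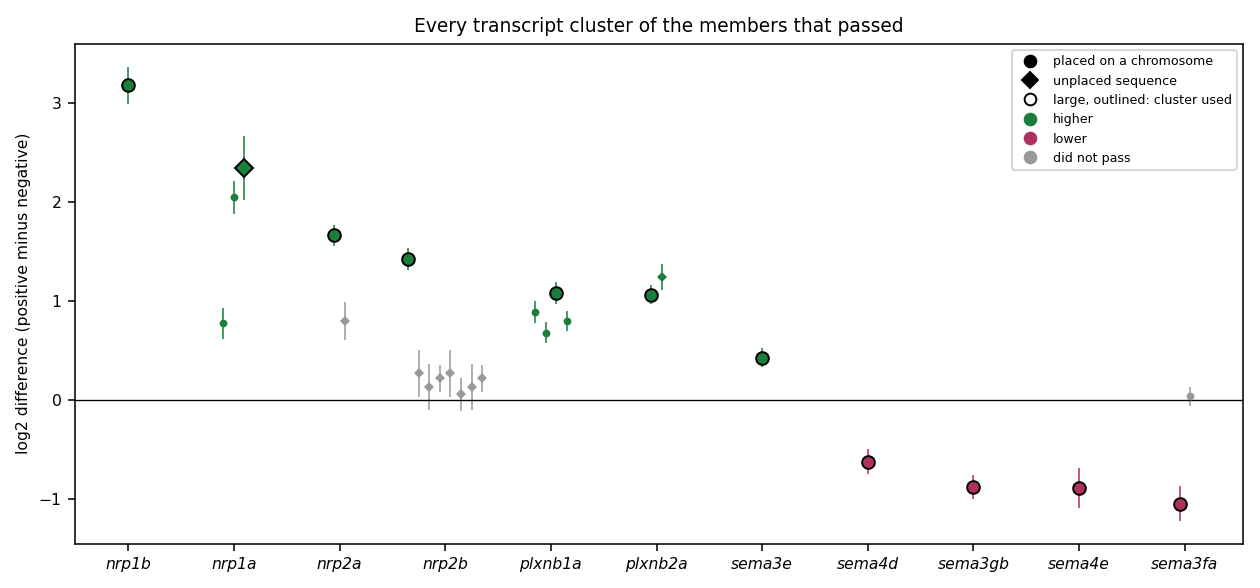
Log2 difference between the fractions, with its standard error, for every transcript cluster of the 11 members that passed, circles for clusters on a chromosome and diamonds for unplaced sequence. All 4 clusters of *plxnb1a* are higher, whereas only 1 of 8 clusters of *nrp2b* is.

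Of 11 secreted class 3 semaphorins, 2 were lower, 1 was higher and 8 did not pass. Of all named genes 3.49% were lower and 4.12% higher. The gene *sema3fa*, whose mammalian counterpart acts through Nrp2 and which is known in zebrafish for guiding cranial neural crest cells, had signals of 7.41, 7.47 and 6.91 on EGFP-positive and 8.52, 8.27 and 8.15 on EGFP-negative arrays. All EGFP-positive arrays were below all EGFP-negative ones, a separation downwards found for 12.6% of all named genes. The gene was 2.07-fold lower (log2 difference -1.05, standard error 0.17, adjusted p = 0.0230 from limma), by a cluster on the forward strand of chromosome 6 of Zv9 from 42750747 to 42847184. A cluster of 25 probes on the opposite strand, at a mean signal near 3 in either fraction, gave 0.03 and may not measure the gene.

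For its duplicate *sema3fb* the signals were 8.73, 8.25 and 8.11 on EGFP-positive and 8.87, 8.75 and 8.61 on EGFP-negative arrays. EGFP-positive replicate 1 lay among the EGFP-negative arrays, and the log2 difference of -0.38 did not pass (adjusted p = 0.373 from limma). The gene *sema3gb*, on chromosome 8 of Zv9 from 24374917 to 24406802, had signals of 5.31, 5.52 and 5.32 on EGFP-positive and 6.40, 6.35 and 6.06 on EGFP-negative arrays. It was 1.84-fold lower (log2 difference -0.88, standard error 0.12, adjusted p = 0.0102 from limma), with EGFP-positive values close to the array medians. Its duplicate *sema3ga* was under the highest array median in both fractions.

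In contrast, *sema3e*, whose mouse counterpart is the ligand of plexin D1 in vessels, had signals of 6.05, 6.16 and 6.02 on EGFP-positive and 5.76, 5.65 and 5.55 on EGFP-negative arrays. The gap between the fractions was small but larger than their spread (1.34-fold higher, log2 difference 0.43, standard error 0.09, adjusted p = 0.0674 from limma). This call did not last, since it was lost without any of 5 of the 6 arrays (adjusted p = 0.122 to 0.217 from limma) and with a replicate block (adjusted p = 0.135 from limma). The signals of *sema3aa*, a counterpart of the first semaphorin known to collapse growth cones, were 8.98, 9.10 and 8.72 on EGFP-positive and 8.66, 8.58 and 8.50 on EGFP-negative arrays. They did not overlap and did not pass (log2 difference 0.36, adjusted p = 0.220 from limma).

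The remaining 6 class 3 genes, besides *sema3fb* and *sema3aa*, had log2 differences between -0.01 for *sema3ga* and 0.30 for *sema3c*. The gene *sema3bl* was well measured at a mean signal of 7.62 against 7.57, but its arrays spread widely (SD 0.60 and 0.39), and the 95% interval of its difference reached from -0.71 to 0.80. The gene *sema3d*, known in zebrafish for guiding retinal axons and neural crest, was 1.19-fold higher on average without passing (adjusted p = 0.298 from limma).

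Of 13 membrane semaphorins, of classes 4 to 7, 2 were lower, against 3.49% of all named genes, and 11 did not pass. Both that fell belong to class 4. The signals of *sema4e* were 6.04, 5.77 and 5.70 on EGFP-positive and 7.08, 6.79 and 6.32 on EGFP-negative arrays. The fractions did not overlap, and *sema4e* was 1.85-fold lower (log2 difference -0.89, standard error 0.20, adjusted p = 0.0723 from limma). The call was lost without any of 5 of the 6 arrays (adjusted p = 0.116 to 0.212 from limma).

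The gene *sema4d* encodes the counterpart of the mammalian plexin B1 ligand. Its signals were 3.78, 3.95 and 3.66 on EGFP-positive and 4.63, 4.34 and 4.29 on EGFP-negative arrays, all below the array medians, where background is not told apart from expression. The log2 difference was -0.63 (standard error 0.13, adjusted p = 0.0481 from limma), for which no fold is given, and the call was lost without any of 4 of the 6 arrays (adjusted p = 0.0974 to 0.153 from limma).

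Class 6 semaphorins span the membrane and bind A plexins. The *sema6d* signals were 8.03, 8.13 and 7.82 on EGFP-positive and 7.69, 7.60 and 7.42 on EGFP-negative arrays, apart but not past the threshold (log2 difference 0.42, adjusted p = 0.144 from limma). For *sema6a* the log2 difference of -0.32 narrowly missed it (adjusted p = 0.0944 from limma), and *sema6dl*, with signals of 10.6 to 10.9 over all 6 arrays, had a difference of 0.25. The classes 5 and 7, with 3 genes, had differences of -0.30 to 0.19. Over all semaphorins that did not pass, differences lay between -0.38 and 0.42 and the 95% intervals between -0.79 and 0.80, the widest being that of *sema3bl*. Of the 24 semaphorins 5 were under the highest array median in both fractions, and of the 13 receptors *plxnc1* was.

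Ligands and receptors that are known to pair, mostly from mammals, can be read side by side. For Nrp2 and its ligand the log2 differences were 1.66 for *nrp2a* and 1.42 for *nrp2b*, against -1.05 for *sema3fa* and -0.38 for *sema3fb*, the last of which did not pass. For plexin B1 and its ligand they were 1.08 for *plxnb1a*, -0.35 for *plxnb1b*, which did not pass, and -0.63 for *sema4d*, at signals near background and with a call lost without any of 4 of the arrays. For plexin D1 and its ligand they were 0.03 for *plxnd1* and 0.43 for *sema3e*, whose call was lost under most settings. For plexin C1 and semaphorin 7A neither gene rose above the array medians. For Nrp1 and Sema3a the log2 differences were 2.35 for *nrp1a* and 3.18 for *nrp1b*, against 0.36 for *sema3aa* and -0.01 for *sema3ab*. Neither of these ligands passed. The value of *sema3ab* comes from a short cluster opposite to its long one. The long cluster gave 0.11, at means of 4.65 on EGFP-positive and 4.54 on EGFP-negative arrays, below the array medians. The A plexins had 0.41 for *plxna1*, 0.34 for *plxna3* and -0.24 for *plxna4*. Class 6 semaphorins had 0.42 for *sema6d*, 0.25 for *sema6dl*, 0.21 for *sema6e* and -0.32 for *sema6a*. No A plexin or class 6 semaphorin passed in the main test.

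Genes of the pathway outside the family were taken from 3 lists chosen by known role. Of 13 co-receptors and partners measured, 2 were higher and 1 was lower, against 4.12% and 3.49% of all named genes. The receptor tyrosine kinase gene *met*, whose product binds Hgf and associates with B plexins in mammalian cells, had signals of 9.75, 9.41 and 9.22 on EGFP-positive and 7.31, 7.10 and 7.16 on EGFP-negative arrays. It was 4.82-fold higher (log2 difference 2.27, standard error 0.15, adjusted p = 0.000531 from limma). The Wnt and polarity co-receptor gene *ptk7a* was 1.46-fold higher (adjusted p = 0.0313 from limma), a call lost without any of 4 of the 6 arrays (adjusted p = 0.102 to 0.117 from limma). The gene *gipc2*, of a family of PDZ proteins that bind the tail of neuropilins, was 1.47-fold lower (adjusted p = 0.0143 from limma), but the cluster with the most probes gave a log2 difference of 0.11.

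Of 35 intracellular effectors, 4 were higher and 1 was lower, against 4.12% and 3.49% of all named genes. Higher were *rnd3a* at 2.68-fold (adjusted p = 0.00150 from limma) and *rnd1a*, listed as *rnd1*, at 2.07-fold (adjusted p = 0.0102), which encode proteins of the Rnd group, and Rnd1 is known to bind plexins. The cofilin kinase gene *limk2* was 2.21-fold higher (adjusted p = 0.00753 from limma) and the small GTPase gene *rap1b* 1.43-fold higher (adjusted p = 0.0525), the last lost without any of 5 of the 6 arrays. The gene *dpysl2b*, which encodes a Crmp protein that relays Sema3A signals to microtubules in neurons, was lower, with signals of 5.81, 6.10 and 6.02 on EGFP-positive and 7.64, 7.08 and 7.27 on EGFP-negative arrays (log2 difference -1.36, standard error 0.16, adjusted p = 0.00541 from limma). The other 30 did not pass, among them the remaining 5 Crmp genes measured and all 5 Mical genes, with a median of the list at -0.03.

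Of 9 Vegf ligands and receptors, 1 was higher and 0 were lower, against 4.12% and 3.49% of all named genes. The gene *vegfaa* was 1.85-fold higher, with signals of 7.65, 7.35 and 7.37 on EGFP-positive and 6.53, 6.65 and 6.52 on EGFP-negative arrays (adjusted p = 0.00684 from limma). The other 8 did not pass, and the Vegf receptor genes *kdrl*, *kdr* and *flt1* had mean EGFP-positive signals of 5.24, 4.73 and 5.06, near the array medians. The receptor gene *flt4* lay above them, at a mean of 6.06 on EGFP-positive and 5.80 on EGFP-negative arrays.

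**Figure D4:**
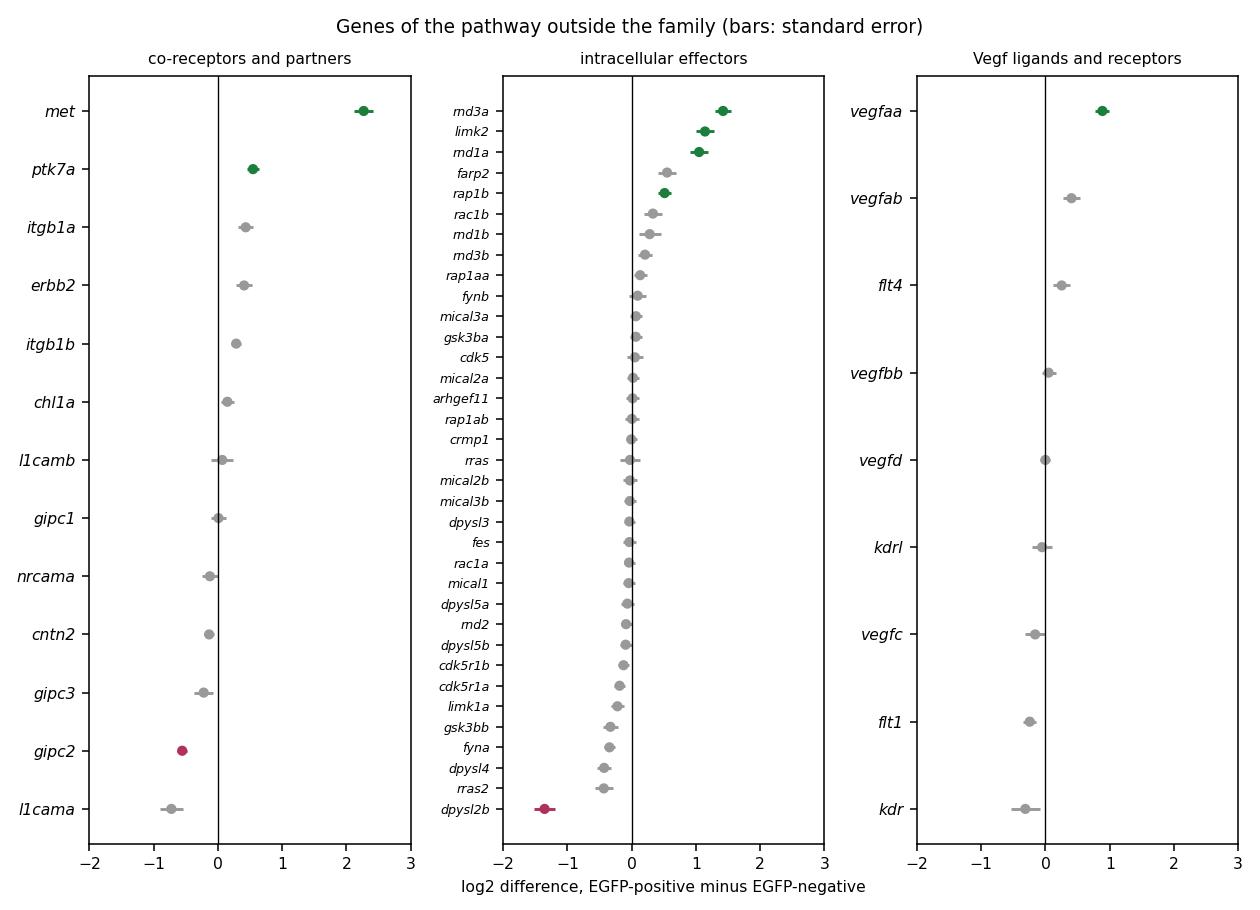
Log2 difference between the fractions for the genes of the 3 lists outside the family, 1 point for each gene with its standard error as a bar, green for higher, red for lower and grey for genes that did not pass. In each list the genes that passed are few, with *met* at 2.27, *rnd3a* at 1.42 and *vegfaa* at 0.89 on top.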

How the data were processed

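RNA of 3 EGFP-positive and 3 EGFP-negative samples was hybridised to Affymetrix ZebGene arrays of one colour, designed on Zv9. The authors deposited log2 signals for 75212 transcript clusters, made with MAS background correction and RMA normalization in ExpressionConsole, whose version is not given in the sources used here. A second deposited table gave symbol, position on Zv9, strand and other annotation such as the number of probes of each cluster. Its columns of the authors' own comparison (log2 differences, test statistics and p-values) were not used. Precision is limited by the number of arrays. No scanner files were used, so that background correction could not be varied.

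The 37268 clusters with 1 symbol represent 25965 genes. Members were kept under the symbols of the files, and 35 of 37 have a current name in a RefSeq table of another assembly, used for names only (*plxna1* is now *plxna1b*, *plxnb2a* is *plxnb2a.1* and *sema6e* is *sema6cb*, while *sema6d* and *sema6dl* map to 1 name and were kept apart). Names in the pathway and marker lists were matched by the same table. The fractions were compared with limma 3.58.1 in R 4.3.3 (lmFit and eBayes, two-sided, no block) over all clusters, with Benjamini-Hochberg adjustment over all of them and a threshold of 0.09. The methods name siggenes, whose SAM statistic was computed as an alternative over 20 label permutations, with the fudge constant at the 5% quantile of the standard errors. Ratios are differences of mean log2 values on the linear scale. Pairs of duplicates were compared by exact permutation in scipy 1.17.1, with pandas 2.3.3 and matplotlib 3.10.9.

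The members, the lists and the tests were chosen with earlier results of these data known. Values on every array are given for the neuropilins, for the members past the threshold and for the 3 ligands and 3 receptors with the largest differences that did not pass, and *plxnd1* was added to these. The fit was also run on simulated normal values, with changes set only in clusters whose EGFP-negative mean was above the median. That run tells nothing of members at lower signals, and no result given here rests on it. As alternatives, the fit was given a replicate block or an intensity trend, the SAM statistic or a limit of 0.05 was used, values were quantile normalized again or centred on array medians, clusters with low signals or without a symbol were dropped before adjustment, genes were read from the mean of their clusters or from that with the most probes, and single arrays were left out. Counting clusters of identical values once, using the longest placed cluster and taking in symbols in capitals were added after the data were seen. No sequences of the members were held by the tables used here.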

Additional observations from a re-analysis of the deposited data

How the results depend on the processing

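The 6 receptors were called higher under each of the 19 alternatives except that *nrp2b* lost its call with the mean of all clusters. There were 7 with *plxna1* with adjustment over named clusters and without EGFP-positive replicate 3, and the receptors called lower were 1 rather than 0 after quantile normalization again, with the filter on low values and with adjustment over named clusters, the 1 being *plxnb1b*. The ligand calls were less stable. With a replicate block, with an adjusted p under 0.05, with an intensity trend, by the SAM statistic, after quantile normalization again and after centring on medians 0 semaphorins were higher, and with adjustment over named clusters 2 were. By the SAM statistic 1 semaphorin (*sema3gb*), and so 1 member, was lower, and over all genes 596 were higher and 438 lower, against 1071 and 905 by limma. Leaving out each array gave 0 to 1 semaphorins higher and 2 to 4 semaphorins and members lower. Over all named genes 670 to 1002 were then higher and 581 to 698 lower. The semaphorins called lower were 5 rather than 4 after quantile normalization again, with adjustment over named clusters and with identical clusters counted once. They were 3 with an adjusted p under 0.05 and with the cluster with the most probes. With the filter on low values, which takes out members near background, the median log2 difference was 0.16 for semaphorins and 0.73 for receptors, and leaving out single arrays gave -0.025 to 0.084 for semaphorins. Leaving out single arrays gave 1 to 2 co-receptors and partners and 1 to 2 Vegf genes higher. With the cluster with the most probes, which lies on the opposite strand for *sema3fa*, the log2 difference of this gene was 0.035, and that of *gipc2* was 0.11. The cause was not tested.

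The embryos came from 3 matings, but the labels do not tie arrays of the same number to 1 mating, and the deviations of same-numbered arrays correlated at -0.03, 0.04 and 0.09. The numbers were therefore not used as pairs, which does not show that the samples are unpaired. With the replicate block 6 receptors were higher, 0 semaphorins were higher and 4 were lower, and *sema3e* (adjusted p = 0.135 from limma) and the effector *rap1b* (adjusted p = 0.127 from limma) lost their calls. For the pairs of duplicates, centring arrays and leaving out single arrays could not test the direction. Centring leaves a difference within an array unchanged. The fractions overlap in no pair, so dropping an array cannot turn the direction. When all clusters were averaged, the pairs kept their direction, but not their size. With the cluster with the most probes not all of them did. The log2 difference was then 0.035 for *sema3fa* against -0.38 for *sema3fb*, which turns the direction of that pair. It was 0.108 for *sema3aa* against 0.112 for *sema3ab*, which leaves almost no difference. Those clusters of *sema3fa* and *sema3aa* lie on the strand opposite to the ones used. Signals near the array medians limit what can be said of *plxnc1*, *sema4d* and the other genes at background.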
